A study of Mus musculus with 12 samples.

Results

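The genes described here are 44 genes of the cell division cycle and of DNA replication: cyclins, cyclin-dependent kinases and their inhibitors, replication factors and mitotic genes. They were taken by symbol from a given list. No measured value picked the genes, but the list was drawn up with earlier results of these data known. A probe set that carries 1 gene symbol was found for 43 of them, and the expression of cyclin B1 (Ccnb1) was not analysed here. Where a gene had several such probe sets, the one with the highest mean log2 signal was used. Of the 43, 42 passed the filter on low values, which asked for a signal above the 40th percentile of the array on at least 3 arrays. The kinase gene Aurkb did not, being above it on 1 of 12 arrays. The 42 were tested among 14645 genes.

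Expression was measured on 12 Affymetrix arrays, each with RNA of epithelial cells sorted from the prostate of C57BL/6 male mice. Mice were castrated at 8 weeks of age, or stayed intact, and prostates were taken 4 weeks after surgery. Dissociated cells without lineage markers (Lin-) and with the epithelial protein EpCAM were split by the integrin CD49f into luminal (CD49f lo) and basal (CD49f hi) cells. Luminal and basal cells of intact and of castrated mice make 4 groups, each with 3 arrays from 3 biological replicate sets. All groups share the strain, the sex and the sort, and the labels name no transgene and no number of animals per set. The castrated mice of a set had intact partners. Since RNA came from bulk sorted cells, a shift in RNA per cell and a shift in the make-up of the sorted fraction cannot be told apart.

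In the cell cycle, D cyclins with the kinases CDK4 and CDK6, and then cyclin E with CDK2, carry a cell from G1 into S phase by inactivating the retinoblastoma (pocket) proteins, which hold back the E2F transcription factors. Licensing factors load the MCM helicase onto replication origins in G1, and enzymes such as ribonucleotide reductase supply nucleotides for S phase. Cyclin A and cyclin B with CDK1 drive G2 and mitosis, and the inhibitors p21, p27 and p18 restrain the cyclin-dependent kinases. The prostate epithelium depends on androgen: castration makes the gland regress, and the cells that remain divide rarely until androgen is restored.

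The sorted fractions carried their markers. Of the 6 luminal marker genes tested, 6 were higher in luminal than in basal cells of intact mice and 5 in castrated mice, and 7 of 7 basal markers were lower in luminal cells in both. Pbsn, an androgen-dependent secretory gene, had signals of 56237 to 70160 in intact and 4690 to 5953 in castrated luminal arrays. This luminal marker also had signals of 4705 to 12419 in intact basal arrays, and of 19.1 to 134 in castrated basal arrays. Markers of other cells also moved with the groups. The summed signal of 8 fibroblast markers was 6596 to 11247 in intact luminal, 515 to 802 in castrated luminal, 36689 to 44999 in intact basal and 21789 to 27724 in castrated basal arrays. Of these 8, 5 fell with castration in luminal cells and 4 in basal cells. Much of the basal sum was Dcn, with 19695 to 22817 in intact and 19295 to 25683 in castrated basal arrays. Sparc had 12407 to 16614 and 390 to 1538 in the same arrays. Summed leukocyte markers (11 of 12 measured) were 10214 to 12956, 525 to 897, 1293 to 2782 and 1794 to 2934 in the same order. Most of the intact luminal sum was Cd52 (9602 to 11519), while the pan-leukocyte gene Ptprc was above the 40th percentile on 3 of 12 arrays and the T cell genes Cd3e and Cd3g on 4 and 1. The 5 endothelial markers summed to 212 to 868, 66.6 to 117, 406 to 856 and 158 to 290, and the 5 smooth muscle markers to 395 to 2013, 172 to 376, 1336 to 2132 and 803 to 1532. None of the 4 tested of either list passed with castration in luminal cells. The sum of 2 measured erythroid genes was 178 to 282, 262 to 461, 227 to 727 and 9.1 to 45.3, and in luminal cells 1 of them rose and 1 fell with castration. The part of these markers in the results was not tested. The 2% trimmed mean was 500.0 on every array, but array medians were 60.5 to 64.1 in castrated luminal and 57.7 to 73.9 in castrated basal arrays against 78.8 or more in intact arrays. Centring arrays on the median instead moved the median log2 fold change of all genes with castration from -0.09 to 0.29 in luminal and from -0.11 to 0.23 in basal cells. Intact luminal replicate 3 and castrated basal replicate 3 were taken to stand apart from their groups, a choice made after seeing the data. No measure for this choice is given here. Counts of calls, and signs and medians of the classes, are therefore given with and without them.

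Signals of the members ran over a wide range. The 40th percentile of an array lay at a signal between 33.3 and 61.1. Of the 43 members measured, 18 were above it on all 12 arrays, among them the 3 inhibitors, 6 of 8 G1 cyclins and kinases, 3 of 4 E2F and pocket genes, 3 of 7 licensing genes and 3 of 5 genes of nucleotide supply and the replication clamp. None of the 13 mitosis genes and none of the 3 measured S, G2 and M cyclins and kinase reached it on all arrays. Of the mitosis genes, 4 did so on 9 to 11 arrays, 8 on 3 to 8 and 1 on fewer.

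In luminal cells, castration was accompanied by lower signal of 3 members and higher signal of 2. Cyclin D1 (Ccnd1), the transcription factor gene E2f1 and the ribonucleotide reductase subunit gene Rrm2 fell, and the helicase subunit gene Mcm6 and the replication clamp gene Pcna rose. That is 5 of 42 (11.9%), against 5.86% of all genes tested in limma, of which 2.9% were higher and 2.96% lower. The median log2 fold change of the 42 was -0.02, against -0.09 over all genes. At an unadjusted p under 0.05 in the limma fit there were 12 members. The share of all genes at this unadjusted cut is not given, here or for later counts. Such counts therefore have no background to be read against. Castrated and intact arrays did not overlap for 16 of the 42, 5 of them higher (14.9% of all genes) and 11 lower (16.8% of all genes). Without both arrays that stand apart, 6 members passed, 1 higher and 5 lower, against 319 higher and 388 lower among all 14645 genes. The median was then -0.23 (again -0.09 over all genes), with 28 of 42 negative in place of 22. Groups were then apart for 7 members higher (20% of all genes) and 14 lower (24.9% of all genes). Leaving out 1 array at a time gave member medians from -0.23 (without intact luminal replicate 3) to 0.15 (without intact luminal replicate 2).

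In basal cells, 1 member changed with castration: Rrm2 fell. This is 2.38% of the 42, and 2.62% of all genes passed (1.12% higher, 1.5% lower). The median over members was -0.48, against -0.11 over all genes, and 30 of the 42 fold changes were negative. Arrays of castrated and intact mice were apart for 1 member higher (8.71% of all genes) and 6 lower (11.1% of all genes). Without both arrays that stand apart the count of calls was 1 again, against 218 higher and 273 lower among all 14645 genes. The median was then -0.28 (-0.07 over all genes), with 25 of 42 negative. Groups were then apart for 3 members higher (13.7% of all genes) and 10 lower (16.6% of all genes). Leaving out 1 array at a time gave member medians from -0.52 to -0.28.

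Luminal and basal cells of intact mice differed in 7 members. Mki67, Top2a and Ccnd1 were higher in luminal cells, while Ccnd2, Cdkn1a, Pcna and Rrm2 were higher in basal cells. The 7 are 16.7% of the members, and 19.5% of all genes passed (11% higher and 8.45% lower in luminal cells). Arrays were apart for 4 members higher (18% of all genes) and 8 lower (14% of all genes) in luminal cells. Without both arrays that stand apart, 6 passed, Top2a no longer, against 1791 higher and 1293 lower among all 14645 genes. In castrated mice 5 members differed, 11.9% against 18.4% of all genes (11.2% higher and 7.22% lower in luminal cells). Ccnd2, Cdkn1a, Pcna and Rrm2 were again higher in basal cells, and Mcm6 was higher in luminal cells. Arrays were apart for 9 members higher (23.6% of all genes) and 7 lower (17.5% of all genes). Here 7 passed without the arrays that stand apart, against 1623 higher and 1158 lower among all 14645 genes. The 4 comparisons share arrays, so they are not independent of each other.

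Whether castration acted differently in the 2 cell types was tested as the difference of both castration effects. No member passed in limma, against 1.15% of all genes. At an unadjusted p under 0.05 in the limma fit there were 2 of the 42 members, Mcm6 (1.83 ± 0.49) and Cdk6 (1.64 ± 0.69). An effect that passed in one cell type and not in the other is therefore not shown to differ between them.

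**Figure D1:**
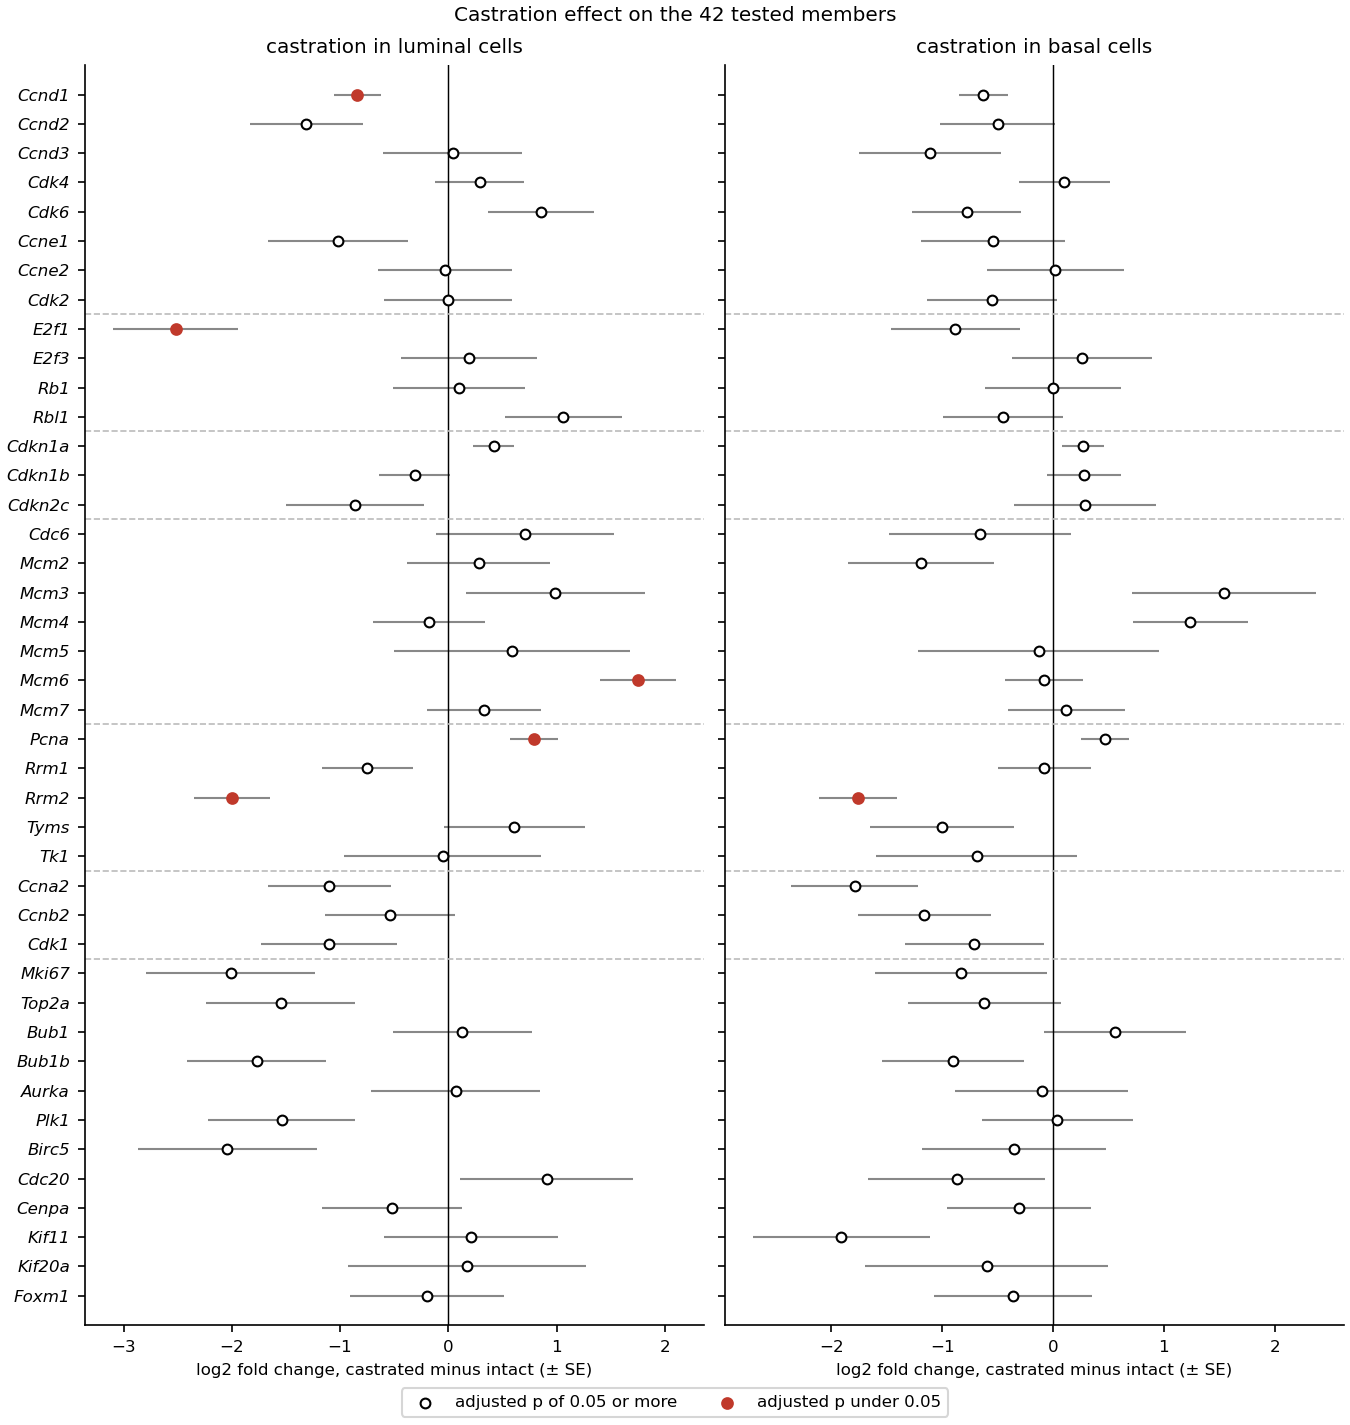
Log2 fold change (castrated minus intact) of the 42 tested members in luminal cells (left) and basal cells (right), with horizontal lines for the standard error. Filled red points passed the adjusted threshold of 0.05, and dashed lines part the role classes. In luminal cells Ccnd1, E2f1 and Rrm2 lie left of 0 and Mcm6 and Pcna right of it, and in basal cells Rrm2 is the single filled point.

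Of the 8 G1 cyclins and kinases, 2 passed between the cell types of intact mice, in opposite directions, and 1 of them in castrated mice. With castration 1 passed in luminal cells and none in basal cells. Cyclin D1, which partners CDK4 and CDK6, had signals of 9474, 10077 and 8854 in intact luminal cells and 4723, 5182 and 5960 in castrated luminal cells. Basal arrays gave 4503, 6977 and 6485 in intact and 3527, 3327 and 4617 in castrated mice. The intact luminal arrays were above all others, and both luminal groups were apart. Ccnd1 was 1.79-fold lower in castrated than in intact luminal cells (log2 -0.84 ± 0.22 SE, n = 3 per group, adjusted p = 0.0284). That call was lost with median centring (-0.46, adjusted p = 0.333), without the intensity trend (adjusted p = 0.162) and with the probe set of largest SD (-1.04, adjusted p = 0.255). Leaving out any castrated luminal array, or intact luminal replicate 1 or 2, also ended it (adjusted p of 0.0617 to 0.136). In basal cells the castration effect was -0.63 ± 0.22 (adjusted p = 0.13). Ccnd1 was higher in luminal than in basal cells of intact mice (0.68 ± 0.22, adjusted p = 0.0352). This was no call with median centring (0.72, adjusted p = 0.0725), in a fit of both intact groups alone (adjusted p = 0.069) or without the intensity trend (adjusted p = 0.153). Nor was it one with the probe set of largest SD (0.78, adjusted p = 0.289). It was also lost without castrated luminal replicate 1 or 2, intact basal replicate 1, or intact luminal replicate 1 or 2 (adjusted p of 0.0501 to 0.15). In castrated mice luminal minus basal was 0.47 ± 0.22 (adjusted p = 0.148).

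Cyclin D2, the second D cyclin, was a gene of the basal fraction. Its signal was 12920, 13155 and 5249 on intact basal and 9656, 8790 and 3674 on castrated basal arrays, against 755, 1666 and 327 on intact luminal and 411, 203 and 294 on castrated luminal arrays. Every basal array was above every luminal array, and within each group except castrated luminal replicate 3 was the lowest. Ccnd2 was 12.6-fold lower in luminal cells of intact mice (-3.66 ± 0.52, adjusted p = 9.68e-05) and 22.1-fold lower in castrated mice (-4.47 ± 0.52, adjusted p = 1.35e-05). Its castration effect was -1.31 ± 0.52 in luminal cells (adjusted p = 0.167) and -0.50 ± 0.52 in basal cells (adjusted p = 0.675). In luminal cells that became a call without intact luminal replicate 3 (-1.89, adjusted p = 0.0431), without both arrays that stand apart (-1.89, adjusted p = 0.0189), without replicate 3 of all groups (-1.90, adjusted p = 0.0179) and with array weights (-1.63, adjusted p = 0.00647). Of the 7 probe sets of Ccnd2, 2 fell with castration in luminal cells when tested singly (-2.41 ± 0.49 and -2.16 ± 0.42), and the others lay between -1.42 and 0.29.

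None of the other 6 genes of the class passed, though Cdk6 and Cdk2 did under some alternatives. Cdk6, a kinase partner of the D cyclins, had 723, 873 and 204 in intact luminal, 966, 956 and 884 in castrated luminal, 509, 803 and 660 in intact basal and 340, 477 and 311 in castrated basal arrays. The castrated luminal arrays were all above the intact luminal ones and the castrated basal ones all below the intact basal ones. Its castration effects were 0.86 ± 0.49 and -0.78 ± 0.49, with a difference of 1.64 ± 0.69 (adjusted p = 0.324). Luminal minus basal in castrated mice was 1.30 ± 0.49 (adjusted p = 0.0738), which passed without intact luminal replicate 3, in a fit of both castrated groups alone, with array weights and without both arrays that stand apart (adjusted p of 0.0162 to 0.0373). Without both arrays that stand apart the luminal value was 0.23 and the difference 0.89. Cyclin D3 (Ccnd3) showed 312, 326 and 237 in intact luminal, 247, 410 and 257 in castrated luminal, 581, 102 and 631 in intact basal and 151, 259 and 84.0 in castrated basal arrays. Those groups overlapped in every comparison. Cyclin E1 (Ccne1), which activates CDK2, was lower on all castrated than on all intact luminal arrays, with a change of -1.02 ± 0.65 (adjusted p = 0.424). Castration effects of Cdk4, Cdk2 and Ccne2 lay between -0.55 and 0.29 in both cell types. Between the cell types of intact mice Cdk2 passed without the intensity trend (-1.50, adjusted p = 0.0466) and without intact basal replicate 3 (-1.88, adjusted p = 0.0484). It also passed when the probe sets of each gene were averaged (-1.50, adjusted p = 0.0413). Only 1 of the 2 Cdk2 probe sets passed the filter, so its value there is that of 1 set.

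**Figure D2:**
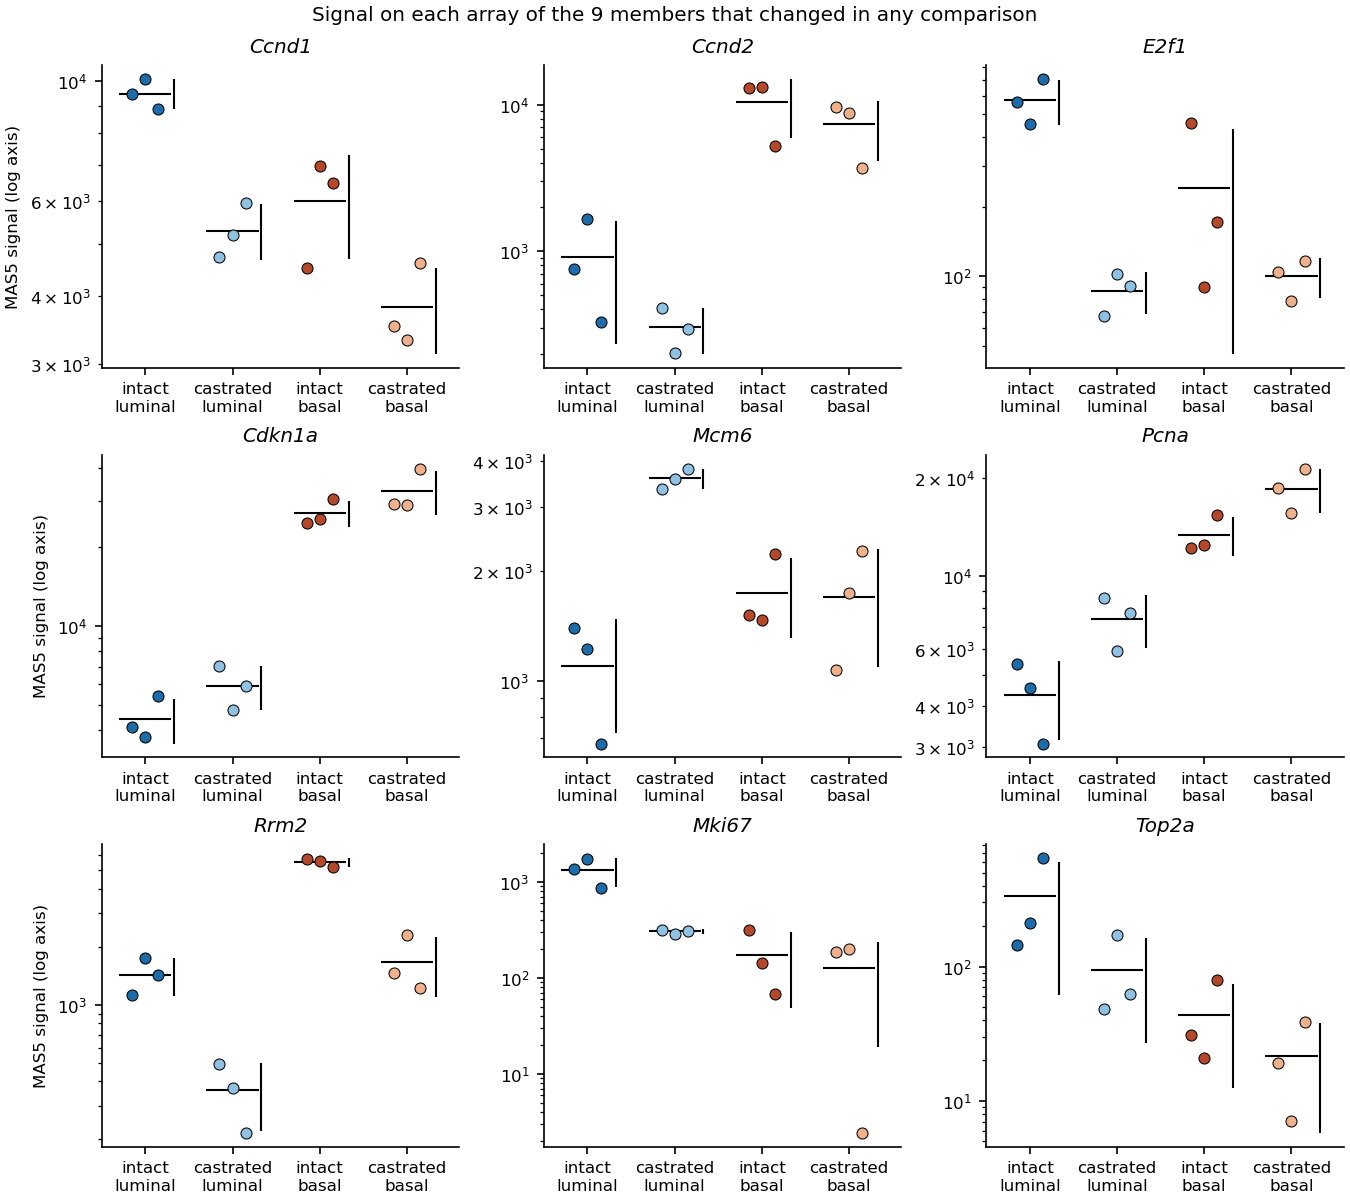
MAS5 signal on a log axis of the 9 members that changed in any comparison, by group. Points are arrays, horizontal lines are means and the vertical lines beside them are standard deviations, cut at a signal of 1. Rrm2 is lowest on the castrated luminal arrays (216 to 491) and highest on the intact basal arrays (5176 to 5716), while Mki67 is highest on the intact luminal arrays (854 to 1747).

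E2f1, the E2F factor best known for activating S phase genes, fell in luminal cells. Its signal was 566, 453 and 710 in intact luminal and 67.4, 102 and 91.3 in castrated luminal arrays. Intact basal arrays gave 458, 90.0 and 171, and castrated basal arrays gave 105, 78.4 and 117. All castrated luminal arrays were below all intact luminal arrays, whereas the basal groups overlapped, with 1 high intact basal array. E2f1 fell 5.72-fold in luminal cells (-2.52 ± 0.58, adjusted p = 0.0149), with an effect of -0.88 ± 0.58 in basal cells (adjusted p = 0.464). In luminal cells the call was lost when any castrated luminal array or intact luminal replicate 3 was left out (adjusted p of 0.0501 to 0.0769). Leaving out replicate 3 of all groups also ended it (-2.40, adjusted p = 0.101). It also rests on 1 of 3 probe sets: the other 2 gave -0.12 ± 0.60 and -0.05 ± 0.65, and the mean of all 3 gave -0.90 (adjusted p = 0.296). Luminal minus basal in intact mice was 1.47 ± 0.58 (adjusted p = 0.0899), which passed without intact basal replicate 1 (2.05, adjusted p = 0.0247).

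None of the remaining E2F and pocket genes passed in any comparison. E2f3, a second activating E2F, had 464, 374 and 697 in intact luminal, 610, 434 and 686 in castrated luminal, 322, 71.6 and 411 in intact basal and 458, 355 and 106 in castrated basal arrays. The luminal groups overlapped, and so did the basal ones, with castration effects of 0.19 ± 0.63 and 0.26 ± 0.63. The retinoblastoma gene Rb1 stood at 0.10 ± 0.61 and 0.00 ± 0.61. Rbl1, the pocket protein p107, was higher on every castrated than on every intact luminal array (1.06 ± 0.54, adjusted p = 0.295), with a value of -0.45 ± 0.54 in basal cells.

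Of the 3 inhibitors, Cdkn1a differed between the cell types, and none passed with castration. Cdkn1a, which encodes p21, had 24638, 25636 and 30491 in intact basal and 29230, 28995 and 39814 in castrated basal arrays. Luminal arrays had 4105, 3770 and 5404 in intact and 7012, 4794 and 5925 in castrated mice. Basal arrays were all above luminal arrays, while intact and castrated arrays of each cell type overlapped. Cdkn1a was 6.11-fold lower in luminal than in basal cells of intact mice (-2.61 ± 0.19, adjusted p = 1.01e-07) and 5.52-fold lower in castrated mice (-2.46 ± 0.19, adjusted p = 3.03e-07). Its castration effects were 0.42 ± 0.19 in luminal (adjusted p = 0.252) and 0.27 ± 0.19 in basal cells (adjusted p = 0.508). The luminal value became a call with median centring (0.80, adjusted p = 0.0428), array weights (0.56, adjusted p = 0.0267) and the mean of both probe sets (0.62, adjusted p = 0.0334).

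Cdkn1b, which encodes p27, had 1355, 1921 and 1945 in intact luminal, 1512, 1367 and 1285 in castrated luminal, 1887, 1315 and 924 in intact basal and 2053, 1222 and 1660 in castrated basal arrays. All 4 groups overlapped, and its fold changes were -0.31 ± 0.33 with castration in luminal and 0.28 ± 0.33 in basal cells. A second probe set of Cdkn1b gave the opposite signs, 0.07 ± 0.44 and -0.53 ± 0.44, and did not pass. For luminal minus basal in castrated mice it gave 1.21 ± 0.44 (adjusted p = 0.0747), against -0.21 ± 0.33 for the set used. Cdkn2c, which encodes the CDK4 and CDK6 inhibitor p18, had 203, 466 and 182 in intact luminal, 137, 301 and 55.1 in castrated luminal, 109, 96.4 and 115 in intact basal and 86.7, 245 and 108 in castrated basal arrays. Its intact luminal arrays were above the intact basal ones (1.17 ± 0.64, adjusted p = 0.228), and its castration effects were -0.86 ± 0.64 and 0.29 ± 0.64. Of the 3 inhibitors, 0 passed with castration in either cell type, and 1 had an unadjusted p under 0.05 in luminal cells.

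Of the 7 replication licensing genes, 6 had positive fold changes with castration in luminal cells (median 0.59, against -0.09 over all genes), and 1 passed. When both arrays that stand apart were left out, 4 of 7 were positive and the median was 0.01. Leaving out 1 array at a time gave 4 to 6 positive. The median then ran from 0.01 (without intact luminal replicate 3) to 1.17 (without intact luminal replicate 2). The gene that passed was Mcm6, a subunit of the hexameric helicase that is loaded at origins. Its signal was 1404, 1223 and 676 in intact luminal, 3369, 3582 and 3825 in castrated luminal, 1518, 1473 and 2235 in intact basal and 1071, 1750 and 2272 in castrated basal arrays. The castrated luminal arrays were above all 9 other arrays. Mcm6 rose 3.37-fold in luminal cells (1.75 ± 0.35, adjusted p = 0.00517) with a value of -0.08 ± 0.35 in basal cells (adjusted p = 0.939). The difference of both effects, 1.83 ± 0.49, had an adjusted p of 0.0891. In castrated mice Mcm6 was higher in luminal than in basal cells (1.14 ± 0.35, adjusted p = 0.0293). That call was lost without castrated basal replicate 1 or 2 or any castrated luminal array (adjusted p of 0.0519 to 0.129). It was also lost without the intensity trend (adjusted p = 0.072). Only the probe set used gave these calls. Its suffix (_x_at) marks Affymetrix sets with probes that can also match other sequences, and the other 2 sets gave 1.34 ± 0.60 and 0.58 ± 0.82 for castration in luminal cells.

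The remaining licensing genes did not pass. Mcm3 had 70.8, 185 and 204 in intact luminal, 279, 212 and 434 in castrated luminal, 122, 284 and 2.80 in intact basal and 550, 161 and 174 in castrated basal arrays. Castrated luminal arrays were above intact luminal ones (0.99 ± 0.83, adjusted p = 0.568), and the basal effect was 1.54 ± 0.83, with 1 very low intact array. Mcm2 had 84.1, 221 and 73.4, then 127, 122 and 176 in luminal cells of intact and castrated mice, and 58.8, 211 and 71.5, then 37.4, 74.6 and 9.94 in basal cells. Castrated luminal arrays were above castrated basal ones (1.64 ± 0.66, adjusted p = 0.0972). Mcm5 had 147, 276 and 15.1 in intact luminal, 125, 326 and 88.8 in castrated luminal, 116, 165 and 499 in intact basal and 569, 662 and 7.68 in castrated basal arrays. Both arrays that stand apart were the lowest of all 12, and the groups overlapped throughout. Mcm4 was lower on all castrated luminal than on all castrated basal arrays (-1.44 ± 0.52, adjusted p = 0.0609). It passed there under 8 alternatives (adjusted p of 0.00695 to 0.0499): without intact basal replicate 1 or 2 or intact luminal replicate 3, without both arrays that stand apart, without replicate 3 of all groups, in a fit of both castrated groups alone, with array weights and with the mean of its probe sets. In intact mice its luminal minus basal value was -0.02, and it was a call with the mean of its probe sets (-1.0, adjusted p = 0.0303) and with the probe set of largest SD (-1.98, adjusted p = 0.0204). Cdc6, which helps to load the helicase, and Mcm7 had castration effects of 0.71 ± 0.82 and 0.33 ± 0.53 in luminal cells.

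Promoter sequence was set beside these classes, since cell cycle genes of different phases are known to carry different promoter elements. The E2F site is typical of genes of the transition from G1 to S phase, and the CHR (cell cycle genes homology region) with CCAAT boxes of genes of G2 and mitosis. RefSeq promoter windows of GRCm38.p6, 250 bases before to 50 after the start, were matched for 35 of the 44 genes (40 windows, since some genes have several). Aurkb, Ccna2, Ccnd1, Ccnd2, Ccne2, Foxm1, Kif20a, Mcm4 and Rb1 were not matched. Motifs were searched on both strands as exact letters. The CHR was read as TTTGAA, and the CCAAT box by its name. For E2F the letters were TTGGCGC or one of its relatives, of which TTCGCGC is one, TTCCCGC another and TTGCCGC the last. One or more E2F matches were in 6 of 7 licensing windows and in 1 of 10 mitosis windows, against 9.57% of all 32851 promoter windows. A CHR match was in 8 of 10 mitosis windows and in 1 of 7 licensing windows, against 17.9% of all windows. CCAAT was in 9 and 6 of them, against 37.4% of all. Of the windows for nucleotide supply and the clamp, 0 of 5 had a CHR match and 2 had an E2F match. Among inhibitor windows these counts were 0 and 1 of 5. Of the 3 windows of S, G2 and M cyclins and kinase (Ccnb1, Ccnb2 and Cdk1), 2 had a CHR match, 2 an E2F match and 3 a CCAAT box. The E2F matches were in Cdk1 and Ccnb1, and Ccnb1 had no CHR match. A match describes letters in a window, and it does not show a bound site.

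Mcm6, which rose in luminal cells, and Rrm2, which fell in both cell types, are shown because both belong to S phase and moved in opposite directions. The stretches are chr1:128359706-128359826 (minus strand) and chr12:24708007-24708220 (plus strand), 5′ to 3′ along the gene, with E2F and CCAAT matches on either strand in capitals. In Mcm6 each run TTGGCGCGAA holds 2 overlapping E2F matches, 1 per strand.
Mcm6: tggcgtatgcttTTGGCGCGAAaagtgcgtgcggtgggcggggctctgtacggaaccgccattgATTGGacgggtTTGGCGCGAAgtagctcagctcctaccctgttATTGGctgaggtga
Rrm2: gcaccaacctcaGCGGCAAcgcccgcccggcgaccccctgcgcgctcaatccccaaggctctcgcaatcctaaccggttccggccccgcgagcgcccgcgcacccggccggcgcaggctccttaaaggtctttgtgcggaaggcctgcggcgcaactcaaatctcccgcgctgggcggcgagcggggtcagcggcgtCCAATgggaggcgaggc

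The printed Mcm6 stretch holds 4 E2F matches and 2 CCAAT boxes upstream of the start, and that of Rrm2 holds 1 of each. The window of Mcm6 has 1 more E2F match, after the start.

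Rrm2, the small regulated subunit of ribonucleotide reductase, was the member that fell in both cell types. Its signal was 1119, 1749 and 1427 in intact luminal, 491, 371 and 216 in castrated luminal, 5716, 5582 and 5176 in intact basal and 1461, 2310 and 1224 in castrated basal arrays. The castrated arrays were below the intact arrays of the same cell type, and basal arrays were above luminal arrays of the same treatment. Rrm2 fell 3.99-fold in luminal cells (-2.0 ± 0.35, adjusted p = 0.00221) and 3.39-fold in basal cells (-1.76 ± 0.35, adjusted p = 0.0152). Both calls held when any 1 array was left out. Array weights ended the basal call, as did a fit without the intensity trend and, in both cell types, the probe set with the largest SD. Luminal cells had 3.86-fold less than basal cells in intact mice (-1.95 ± 0.35, adjusted p = 8.46e-04) and 4.54-fold less in castrated mice (-2.18 ± 0.35, adjusted p = 3.13e-04). The call in castrated mice was lost with the probe set of largest SD (-1.61, adjusted p = 0.175). The probe set used is again one with the suffix _x_at. The other 2 sets of Rrm2 gave castration effects of -1.29 and -1.04 in luminal cells and of -1.08 and -1.95 in basal cells, which did not pass when tested singly, and all 3 passed between the cell types of intact mice.

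Pcna, the sliding clamp that tethers DNA polymerase, rose in luminal cells, where Rrm2 fell. Its signal was 5408, 4548 and 3080 in intact luminal, 8617, 5920 and 7732 in castrated luminal, 12177, 12501 and 15423 in intact basal and 18596, 15612 and 21357 in castrated basal arrays. Castrated arrays were above intact arrays in both cell types, and basal above luminal. Pcna was 1.73-fold higher in luminal cells after castration (0.79 ± 0.22, adjusted p = 0.0425), a call close to the threshold. It was lost with the replicate set as a block (adjusted p = 0.0519), in a fit of both luminal groups alone (adjusted p = 0.0696) and without the intensity trend (adjusted p = 0.223). Adding 1 before the logarithm (adjusted p = 0.0511) and choosing probe sets by largest SD (adjusted p = 0.0526) also ended it. Without both arrays that stand apart the value was 0.56 (adjusted p = 0.12), and without replicate 3 of all groups 0.52 (adjusted p = 0.221). The call was also lost without castrated luminal replicate 1 or 3, intact luminal replicate 2 or 3, castrated basal replicate 1, or intact basal replicate 1 or 2 (adjusted p of 0.052 to 0.195). In basal cells the castration effect was 0.47 ± 0.22 (adjusted p = 0.281). Luminal cells had 3.13-fold less Pcna than basal cells in intact mice (-1.65 ± 0.22, adjusted p = 5.27e-05) and 2.50-fold less in castrated mice (-1.32 ± 0.22, adjusted p = 4.15e-04), and these 2 calls held when any 1 array was left out. The gene has 1 probe set.

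Of the other genes of nucleotide supply, none passed. Tyms, the thymidylate synthase, had 64.8, 4.84 and 6.89 in intact luminal, 32.4, 36.4 and 38.7 in castrated luminal, 44.6, 58.7 and 96.6 in intact basal and 44.5, 42.3 and 2.15 in castrated basal arrays. It lay above the 40th percentile on 6 of 12 arrays, and its castrated basal arrays were just below the intact basal ones (-1.0 ± 0.65, adjusted p = 0.455). Rrm1, the large subunit of the reductase, was lower on all castrated than on all intact luminal arrays (-0.75 ± 0.42, adjusted p = 0.356) and stood at -0.08 ± 0.42 in basal cells. For the salvage enzyme gene Tk1 the values were -0.05 ± 0.91 and -0.69 ± 0.91.

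The cyclins and the kinase of S phase, G2 and mitosis had negative fold changes with castration in both cell types, and none passed. The medians of the 3 measured genes were -1.10 in luminal and -1.16 in basal cells, and -1.0 and -1.28 without both arrays that stand apart, again with all 3 negative in both. Cyclin A2 (Ccna2) had 341, 204 and 166 in intact luminal, 98.5, 82.8 and 111 in castrated luminal, 235, 239 and 197 in intact basal and 41.6, 113 and 28.3 in castrated basal arrays. Castrated arrays were below intact arrays in both cell types. The effects were -1.10 ± 0.57 in luminal (adjusted p = 0.307) and -1.79 ± 0.57 in basal cells (adjusted p = 0.102). Cyclin B2 (Ccnb2) had 89.6, 124 and 107 in intact luminal, 33.4, 101 and 86.6 in castrated luminal, 72.0, 58.0 and 143 in intact basal and 11.7, 46.3 and 38.3 in castrated basal arrays. Its basal groups were apart (-1.16 ± 0.60, adjusted p = 0.327) and its luminal groups overlapped (-0.54 ± 0.60). Cdk1, the kinase both cyclins activate, had 112, 95.3 and 131 in intact luminal, 88.4, 24.2 and 35.0 in castrated luminal, 109, 73.1 and 47.0 in intact basal and 37.8, 90.8 and 11.7 in castrated basal arrays. For Cdk1 the luminal groups were apart (-1.10 ± 0.63, adjusted p = 0.365), and the basal groups overlapped.

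Mitosis genes were led by Mki67, the gene of a nuclear protein used to stain cycling cells. It had 1362, 1747 and 854 in intact luminal, 317, 287 and 307 in castrated luminal, 314, 141 and 68.3 in intact basal and 184, 197 and 2.41 in castrated basal arrays. Intact luminal arrays were far above the other 9, and the castrated luminal arrays lay close together. In intact mice Mki67 was 7.85-fold higher in luminal than in basal cells (2.97 ± 0.78, adjusted p = 0.0123). The call was lost without intact basal replicate 3 or intact luminal replicate 2 (adjusted p of 0.0542 and 0.0536) and with 1 added before the logarithm (adjusted p = 0.0737). Its castration effect in luminal cells was -2.01 ± 0.78 and missed the threshold (adjusted p = 0.157). Errors in the fit come from the spread within the 4 groups jointly, and the value became a call in a fit of both luminal groups alone (adjusted p = 0.00709), without castrated basal replicate 3 (adjusted p = 0.0276), with array weights (adjusted p = 0.00819) and with 64 added before the logarithm (adjusted p = 0.0485). It was -2.29 and a call without both arrays that stand apart (adjusted p = 0.026) or without replicate 3 of all groups (adjusted p = 0.0261). In basal cells the effect was -0.83 ± 0.78 (adjusted p = 0.637), and 0.34 without both arrays that stand apart. In castrated mice luminal cells had 1.79 ± 0.78 more than basal cells on the log2 scale (adjusted p = 0.126), and 0.63 without those arrays.

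Top2a, the topoisomerase that untangles sister chromatids, had 145, 209 and 642 in intact luminal, 48.5, 172 and 62.9 in castrated luminal, 30.7, 20.9 and 78.9 in intact basal and 19.3, 7.13 and 38.8 in castrated basal arrays. Luminal arrays were above basal arrays of the same treatment, and the intact and castrated arrays overlapped. Top2a was 5.26-fold higher in luminal than in basal cells of intact mice (2.40 ± 0.69, adjusted p = 0.0205). That call was lost without intact luminal replicate 3, and without intact basal replicate 1 or 2 (adjusted p of 0.0601 to 0.0862). It was also lost with the mean of probe sets (1.16, adjusted p = 0.137) and in a fit of both intact groups alone (adjusted p = 0.0509). The same held without both arrays that stand apart (adjusted p = 0.0714) and without replicate 3 of all groups (adjusted p = 0.0501). A second probe set of Top2a that passed the filter gave -0.08 for the same comparison. For castration the chosen set gave -1.55 ± 0.69 in luminal (adjusted p = 0.224) and -0.62 ± 0.69 in basal cells (adjusted p = 0.694).

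The promoters of Mki67 (chr7:135716460-135716579, minus strand) and Top2a (chr11:99024200-99024428, minus strand) are shown because both genes were higher in intact luminal cells and both carry CHR and CCAAT letters. They run 5′ to 3′ along the gene, with these motifs on either strand in capitals.
Mki67: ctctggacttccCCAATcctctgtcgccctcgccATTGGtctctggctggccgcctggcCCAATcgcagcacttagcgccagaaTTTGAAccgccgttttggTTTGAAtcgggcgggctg
Top2a: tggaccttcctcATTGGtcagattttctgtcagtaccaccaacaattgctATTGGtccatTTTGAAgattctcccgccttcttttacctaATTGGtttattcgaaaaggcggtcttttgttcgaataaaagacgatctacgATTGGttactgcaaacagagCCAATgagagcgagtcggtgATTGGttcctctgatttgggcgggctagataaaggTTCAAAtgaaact

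The Mki67 stretch holds 2 CHR and 3 CCAAT matches, and that of Top2a holds 2 and 6. Neither printed stretch has an E2F match, and the window of Mki67 has 1 nearer the start.

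Several further mitosis genes had lower signal on all castrated than on all intact luminal arrays without passing. Birc5, which encodes survivin of the chromosomal passenger complex, had 124, 123 and 247 in intact luminal, 40.9, 49.3 and 3.90 in castrated luminal, 56.6, 94.5 and 233 in intact basal and 53.0, 400 and 17.5 in castrated basal arrays. The luminal groups were apart (-2.04 ± 0.83, adjusted p = 0.181), while the basal groups overlapped widely. The spindle checkpoint kinase gene Bub1b (-1.77 ± 0.64, adjusted p = 0.125) and the polo-like kinase gene Plk1 (-1.54 ± 0.68, adjusted p = 0.222) were apart in the same way. Kif11, a motor of the spindle, had 186, 214 and 7.66 in intact luminal, 131, 155 and 50.8 in castrated luminal, 50.9, 171 and 85.4 in intact basal and 29.6, 6.00 and 7.78 in castrated basal arrays. Its castrated basal arrays were below the intact basal arrays (-1.91 ± 0.80, adjusted p = 0.215) and below the castrated luminal arrays (2.05 ± 0.80 for luminal minus basal, adjusted p = 0.0861). The second of these passed without intact luminal replicate 3, without replicate 3 of all groups, in a fit of both castrated groups alone and with array weights (adjusted p of 0.0245 to 0.0407). With array weights Bub1b was a call for castration in luminal cells (-1.62, adjusted p = 0.0441). Over the 12 tested mitosis genes, 0 passed with castration in luminal cells in limma, against 5.86% of all genes. Unadjusted p was under 0.05 in limma for 5 of these mitosis genes, with no share of all genes given. Of the 12, 4 were apart downward (16.8% of all genes) and 0 upward (14.9% of all genes), and the median was -0.36 with 7 of 12 negative. Without both arrays that stand apart the median was -0.73 with 9 negative, and 5 were apart downward (24.9% of all genes). Leaving out 1 array at a time gave medians from -0.73 to -0.27. The median in basal cells was -0.48 with 10 of 12 negative, and -0.35 with 7 negative without those arrays. Between luminal and basal cells of intact mice 2 of 12 passed, Mki67 and Top2a, which is 16.7% against 19.5% of all genes. The median was 0.48 there, and 0.50 without both arrays. Bub1, Aurka, Cdc20, Cenpa, Kif20a and Foxm1 had castration effects between -0.87 and 0.91, and none of them passed. Without intact luminal replicate 2, Cdc20 passed between the cell types of intact mice (-2.83, adjusted p = 0.0184).

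**Figure D3:**
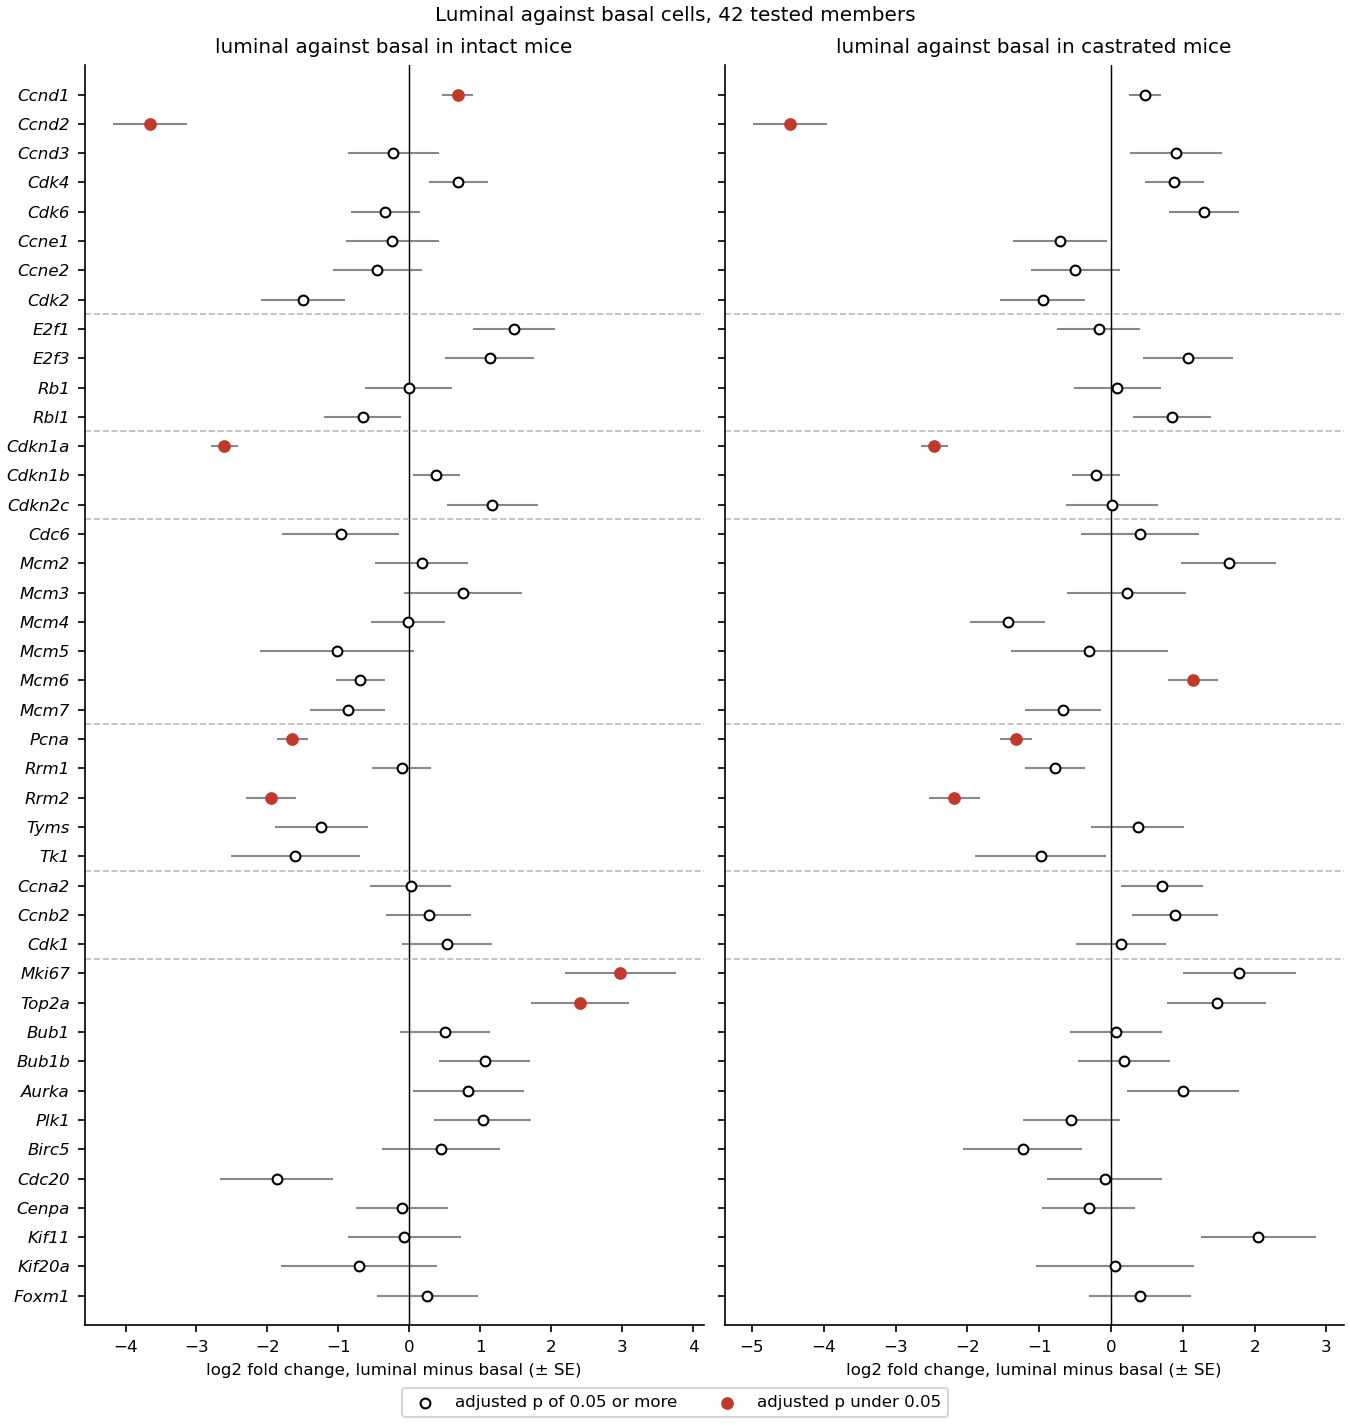
Log2 fold change (luminal minus basal) of the 42 tested members in intact mice (left) and castrated mice (right), with horizontal lines for the standard error and dashed lines between role classes. Filled red points passed the adjusted threshold of 0.05. Ccnd2, Cdkn1a, Pcna and Rrm2 lie left of 0 in both panels, and Mki67 and Top2a are filled in intact mice (2.97 and 2.40) and open in castrated mice (1.79 and 1.47).

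As a description of whole classes, each member's log2 signal was taken relative to its mean over the 12 arrays and averaged over the class on each array. The mitosis mean was 0.40, 0.90 and 0.44 in intact luminal, -0.02, -0.17 and -0.11 in castrated luminal, 0.11, -0.42 and 0.37 in intact basal and -0.30, -0.51 and -0.69 in castrated basal arrays. Intact luminal arrays were the highest of all. The S, G2 and M cyclins and kinase averaged 0.67 ± 0.10 (SD, n = 3) and -0.24 ± 0.09 in luminal cells of intact and castrated mice, and 0.40 ± 0.12 and -0.82 ± 0.68 in basal cells. Castrated arrays lay below intact ones in both cell types. For licensing the means were -0.28, 0.15 and -1.01 in intact luminal, 0.26, 0.34 and 0.19 in castrated luminal, -0.33, 0.45 and -0.12 in intact basal and 0.45, 0.56 and -0.65 in castrated basal arrays. The lowest values belong to both arrays that stand apart, and the castrated luminal arrays were above the intact luminal ones. Nucleotide supply and the clamp averaged -0.43 ± 0.18 and -0.71 ± 0.15 in luminal cells and 0.88 ± 0.27 and 0.27 ± 0.33 in basal cells. No test was made on these averages.

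**Figure D4:**
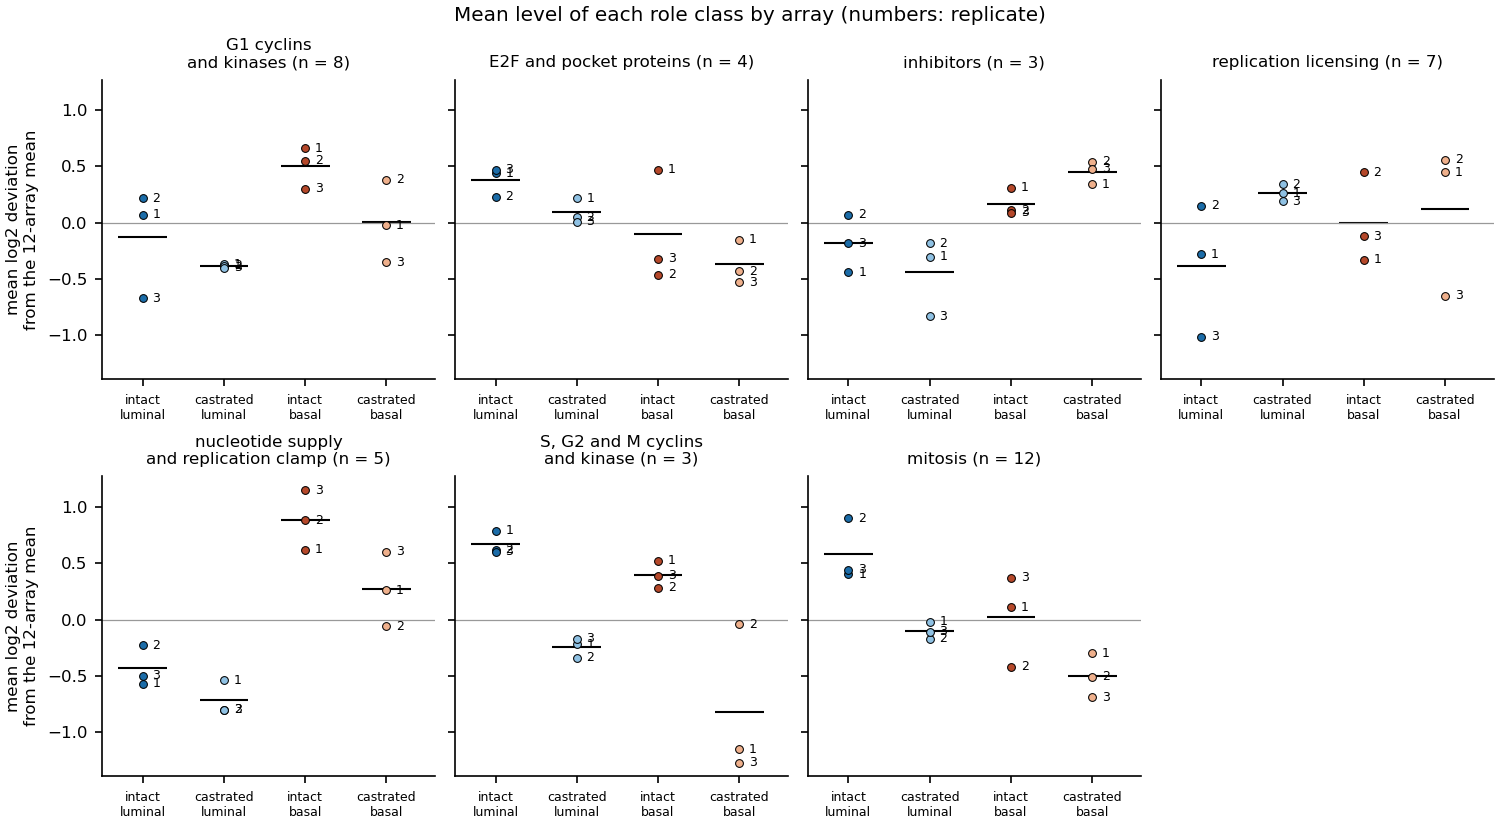
Mean log2 deviation of each role class from its 12-array mean, by group. Points are arrays with their replicate number, horizontal lines are group means, and n is the number of genes in the class. Mitosis is highest on the intact luminal arrays (0.40 to 0.90), and licensing is lowest on intact luminal replicate 3 (-1.01) and castrated basal replicate 3 (-0.65).

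How far calls depended on the probe set was checked by testing every probe set singly. Between luminal and basal cells, 7 of 7 probe sets of Ccnd2 and 2 of 2 of Cdkn1a passed in the same direction in both intact and castrated mice. With castration in luminal cells, 1 of 3 probe sets passed for each of Ccnd1, E2f1, Mcm6 and Rrm2, all with the same sign. Their log2 fold changes ran from -1.04 to -0.84 for Ccnd1, from -2.52 to -0.05 for E2f1, from 0.58 to 1.75 for Mcm6 and from -2.0 to -1.04 for Rrm2.

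**Figure D5:**
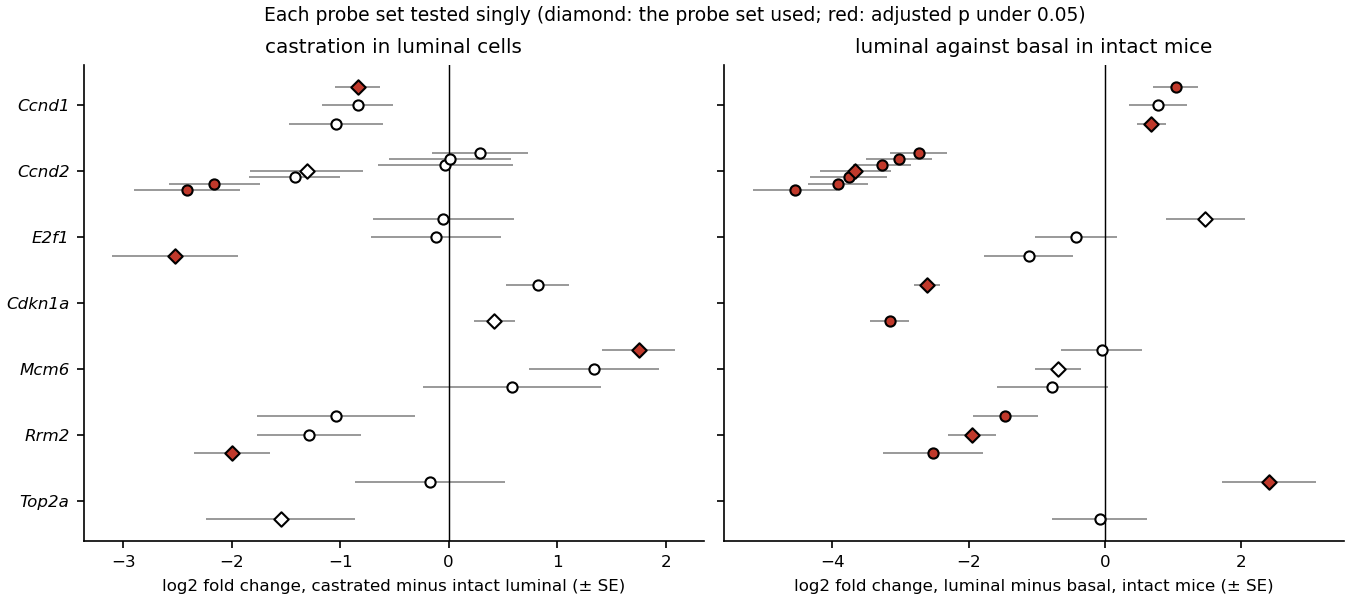
Log2 fold change of every tested probe set of 7 members, for castration in luminal cells (left) and for luminal minus basal cells of intact mice (right), with horizontal lines for the standard error. Diamonds are the probe sets used for the gene, and red symbols passed the adjusted threshold of 0.05. All 7 Ccnd2 probe sets are red on the right, while on the left E2f1 has 1 red set at -2.52 and 2 open ones near 0.

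Beyond the members, 95 other genes of replication, mitosis and cell cycle control were listed, and 86 of them were tested. With castration in luminal cells 2 rose and 1 fell (3.49% of 86), against 5.86% of all genes. The stress response gene Gadd45a rose (1.34 ± 0.21, adjusted p = 9.95e-04), as did the licensing factor gene Cdt1 (2.32 ± 0.60, adjusted p = 0.0299), and the cyclin G1 gene Ccng1 fell (-0.91 ± 0.23, adjusted p = 0.0242). Cdt1 had 165, 92.3 and 9.92 in intact and 383, 497 and 295 in castrated luminal arrays. Of the 26 other mitosis genes tested, 0 passed there and 8 had an unadjusted p under 0.05 in limma (share of all genes not given). Of their fold changes, 20 were negative (median -0.94, against -0.09 over all genes). Of the 34 other replication genes, 24 were positive (median 0.33) and 1 passed. When both arrays that stand apart were left out, 21 of the 26 were negative (median -0.89) and 19 of the 34 were positive (median 0.06). Leaving out 1 array at a time gave medians from -1.07 to -0.87 for these mitosis genes and from 0.06 to 0.4 for these replication genes. In basal cells the spindle checkpoint gene Bub3 rose (1.19 ± 0.30, adjusted p = 0.0444) as the single call of 86. That is 1.16%, against 2.62% of all genes. Between luminal and basal cells of intact mice 4 were higher and 5 lower in luminal cells (10.5% of 86, against 19.5% of all genes). Lowest in adjusted p were Myc (-1.05 ± 0.16, adjusted p = 1.95e-04), Cdt1 (-3.68 ± 0.60, adjusted p = 3.65e-04) and Ccng1 (1.20 ± 0.23, adjusted p = 0.00128). In castrated mice 5 were higher and 2 lower (8.14% of 86, against 18.4% of all genes). Here the lowest were Myc (-0.73 ± 0.16, adjusted p = 0.00384), Ccng2 (1.73 ± 0.41, adjusted p = 0.00667) and the inhibitor gene Cdkn2b (2.69 ± 0.67, adjusted p = 0.00861). In the difference of both castration effects 0 of 86 passed in limma, against 1.15% of all genes. Of the 86, 13 had an unadjusted p under 0.05 there (share of all genes not given).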

How the data were processed

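Gene expression was measured on 12 arrays, 3 for each of 4 groups. The labels' protocols name the RNeasy Micro kit for RNA of the sorted cells, the NuGEN Pico kit for amplification and biotin as the label. Per the submitters' processing notes, the authors computed the deposited signal intensities, on a linear scale, with MAS5. Its version is not given in the sources used here, and no detection calls were used. Trimming 2% at both ends left an average signal of 500.0 on every array. A supplied annotation table gave 1 symbol to 34945 of 45101 probe sets, several to 932 and none here to 9160; the 64 control probe sets were left out.

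Signals were transformed as log2(signal + 16), which understates fold changes of dim genes. A gene was kept if 3 or more arrays had it above their own 40th percentile. Group means were fitted with limma 3.58.1 (R 4.3.3) with an intensity trend, and p-values were adjusted after Benjamini-Hochberg over 14645 genes, with a threshold of 0.05. The number of arrays limits the precision. The fit was tested on simulated data. Python 3.11.15 with pandas 2.3.3 and numpy 2.4.6 made the tables and searched the promoters, and matplotlib 3.10.9 drew the plots.

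The members and gene lists were chosen with earlier results of these data known. Signals of every array are given for Mki67, Top2a, Pcna, Cdkn1a, Cdkn1b and Ccnd1, for members past the threshold, and for the member with the largest absolute fold change per role class and comparison. Of other cell cycle genes, up to 3 per comparison with the lowest adjusted p are named. Further members are named because the list was given.

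The design text speaks of 3 replicate sets in which castrated mice had intact partners, and the replicate numbers in the labels were taken as that pairing. Deviations from the group mean of arrays with the same number had correlations over genes of -0.00723 to 0.0258. The replicate block was an alternative to the model without it. The others were quantile normalization, median centring, another added constant (1 or 64), a stricter filter or none, a fit of only the compared groups, a fit without intensity trend, array weights, another choice of probe set, and dropping arrays one by one. Added after seeing the data were fits without both arrays that stand apart, fits without replicate 3 of all groups and a test of each probe set singly. So were class signs and medians without the arrays that stand apart or without 1 array at a time.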

Additional observations from a re-analysis of the deposited data

How the results depend on the processing

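Over all alternatives, no called value of a member changed sign, counting sign changes only where the value passed before or after. Of 5358 single-member values under alternatives, 5259 kept their side of the threshold, 62 lost a call and 37 gained one. Most of the 5358 were not calls in the main fit and so had no call to lose. Of 12 fits that left out 1 array, the luminal castration call was lost in 5 for Ccnd1, 4 for E2f1, 7 for Pcna and 0 for Mcm6 and Rrm2. The count of members that changed with castration in luminal cells was 5. It was 9 with array weights, 3 without the intensity trend and 1 when the probe set with the largest SD stood for the gene. Leaving out 1 array gave 2 to 6, with 2 without castrated luminal replicate 1 or 3, and 3 without castrated luminal replicate 2 or intact luminal replicate 2. In basal cells the count of 1 became 0 with array weights, without the trend and with the probe set of largest SD, and was 1 whichever array was left out. Between luminal and basal cells of intact mice 7 became 6 to 7 when 1 array was left out and 5 to 8 otherwise. In castrated mice 5 became 8 in the 2-group fit and with array weights and 3 with the probe set of largest SD. Leaving out 1 array gave 4 to 8 there, the 8 without intact luminal replicate 3. The difference of castration effects had 0 members under every alternative run; the 2-group fit was not run for it. With the replicate number as a block the counts were 4, 1, 7, 5 and 0 in this order, and Pcna in luminal castration was the call lost. With median centring the luminal castration calls were 3 higher and 2 lower, against 2 and 3. Over all genes, luminal castration gave 858 calls and 401 to 984 when 1 array was left out, and basal castration 384 and 175 to 623. The causes of these shifts were not tested. Calls of Ccnd2, Cdkn1a and Pcna between cell types, in intact and castrated mice, and of Rrm2 in intact mice held in every alternative. None of the 13 mitosis genes was above the 40th percentile on all 12 arrays, and whether this limits their calls was not tested.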
